A study of Rattus norvegicus with 27 samples.

Results

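Itgb4 encodes integrin subunit beta 4, and the genes described with it encode its known partners and ligands. The list held 8 genes, namely Itgb4, Itga6, Plec, Cd151, Dst, Lama5, Lamb2 and Lamc1, matched by gene symbol in a table of 17321 genes. Of these, 7 had a row, and Dst had none. Itgb4 was chosen because of its lower expression after limited bedding in these same animals, so its values in the treatment, interaction and LB sex comparisons are a description without a test. The partners were tested. The question was whether their expression followed that of Itgb4, and which vascular or meningeal genes varied with it.

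Punches of the interpositus nucleus (IP), a deep nucleus of the cerebellum, were taken from Long-Evans rats on postnatal day 70 for mRNA sequencing. Normally reared animals (no treatment, NT) comprised 5 females and 7 males, and limited bedding (LB) animals, kept with scarce nesting material over a mesh floor from day 2 to 9, comprised 7 females and 8 males. Each sample title was taken as an animal number. Pups were cross-fostered, and after weaning lived in cages of 1 sex and 1 treatment, so that cages are nested within groups, and which animals shared a cage is not given. A punch holds vessels and, at the tissue surface, meninges besides nuclear and cortical neurons, and the marker genes of endothelium, pericytes, smooth muscle, meningeal fibroblasts and choroid plexus were all detected. In such bulk samples fewer cells of a type and less RNA per cell cannot be told apart.

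Integrin beta 4 pairs only with the alpha 6 subunit, encoded by Itga6, to form a receptor for laminin. In epithelia its long cytoplasmic tail binds plectin (Plec), which, together with dystonin (Dst), ties the receptor to intermediate filaments in the hemidesmosome, while the tetraspanin Cd151 sits beside it in the membrane. Laminins are trimers of an alpha, a beta and a gamma chain in basement membranes, and Lama5, Lamb2 and Lamc1 can together form a laminin of vessel walls. Alpha 6 also pairs with beta 1, and Plec and the laminins serve many cell types, whereas in brain Itgb4 is known from arterial endothelium.

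Per transcript length, Plec was the most abundant member, with 27.1 ± 8.96 TPM (SD, n = 27 animals), a unit that divides counts by gene length and scales each animal to a common total. Itga6 followed with 16.9 ± 4.33 TPM and Lamb2 with 16.7 ± 3.93 TPM, and these 2 levels differed by less than their SD. Lamc1 had 11.2 ± 2.46 TPM. Itgb4 with 0.976 ± 0.693 TPM and Lama5 with 0.917 ± 0.280 TPM were the least abundant of the members tested, and their ranges overlapped. Itga6 was thus far above Itgb4 in every group. Counts per animal ranged from 10 to 168 for Itgb4 and from 34 to 198 for Lama5, and from 463 upwards for the others. At these counts a moderate difference in Itgb4 or Lama5 is measured less precisely than the same difference in Plec, which had at least 1722 counts in every animal.

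Cd151 could not be compared. It had 19 counts over the 27 animals, at most 4 in any animal, where 3 counts were taken as the smallest detectable amount. The annotation places Cd151 at 2 positions of chromosome 1 in the rn6 genome, from 214009753 to 214013760 and from 214446659 to 214450666, each with 8 exons. Of 11 genes placed 2 times in that stretch, 9 had at most 10 counts in every animal, against 5 of 17 genes placed 1 time there. How reads that map to several places were treated is not given in the sources used here, so the low count is no measure of Cd151 expression. Cd151 is left out of all counts of genes tested. The other members each lie at 1 position and share no exon bases with another gene.

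Itgb4 lies on chromosome 10 of rn6 (104524000 to 104560180, plus strand, 42 exons). Expression is given as normalized CPM, which are counts scaled to a common library total with the TMM method and not divided by gene length. NT females had 3.15, 3.46, 5.55, 5.68 and 5.69 CPM. LB females ranged from 0.543 to 1.38 CPM with a median of 0.620 CPM, so that 7 of 7 were below every NT female. The summed count was 95 over 7 LB females and 414 over 5 NT females. NT males ranged from 2.95 to 9.41 CPM with a median of 5.22 CPM, and LB males from 1.71 to 4.94 CPM with a median of 2.5 CPM. In males the groups overlapped, and 4 of 8 LB males were below every NT male. NT male 6112 had the highest value and lay well above the other NT males.

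The log2 fold change of Itgb4, positive when expression was higher in LB, was -2.55 in females (95% confidence interval -3.22 to -1.88) and -0.85 in males (-1.42 to -0.28). These correspond to 5.87-fold and 1.80-fold lower expression. The difference between the 2 effects was 1.70 on the log2 scale, with an interval from 0.83 to 2.58. As Itgb4 was chosen by its fall in these animals, these intervals describe the fit and test nothing. Between NT males and NT females Itgb4 differed by 0.14, less than its standard error of 0.31. Itgb4 was the gene by which the list was built, so its calls are likewise a description. It was the 1 gene of 12107 tested (0.00826%) called between LB and NT females, and the 1 gene (0.00826%) over both sexes. With the meningeal fibroblast score (described below) as a covariate, 0 genes were called between LB and NT females and the log2 fold change of Itgb4 was -1.85. Over both sexes DESeq2 gave no adjusted p to Itgb4 or to 4 of the 5 partners tested. The 103 genes it called there, all higher in LB, were thus not called among all 12107 genes.

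**Figure D1:**
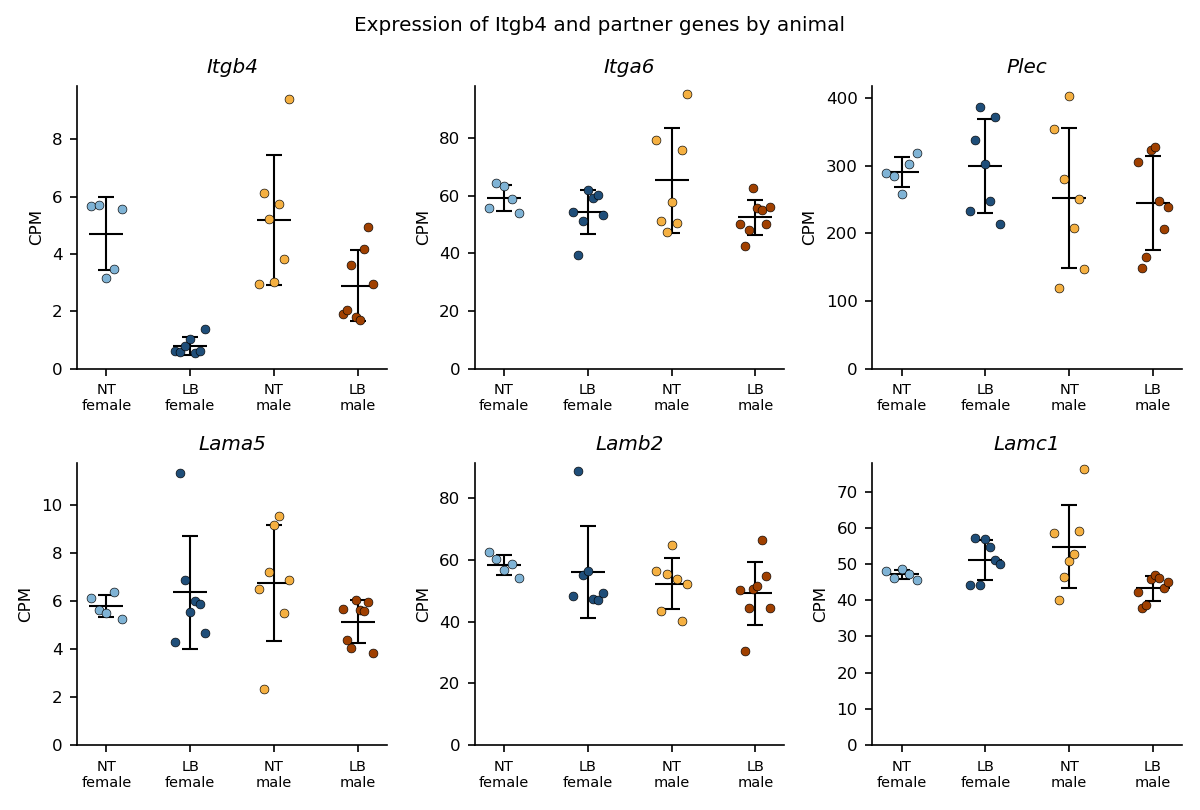
Normalized expression in CPM (vertical axes, each from 0) of the 6 members tested, with 1 point per animal, by group (horizontal axes); horizontal lines are means and bars SD. LB females sit below every NT female for Itgb4, the gene chosen by its fall in these animals, between 0.543 and 1.38 CPM.

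In females the log2 fold changes of the 5 partners tested lay between -0.13 and 0.14. Itgb4 was chosen by its fall and had the smallest p of all genes tested in females. That its partners changed less was therefore largely set by the choice. A gene was called when its quasi-likelihood p from edgeR, after Benjamini-Hochberg adjustment for every gene tested, was under 0.05. In females 0 of 5 partners were called, beside 0.00826% of all genes tested, which was Itgb4 alone. That count by itself does not set the partners apart from other genes. The alpha subunit Itga6 (chromosome 3, 58443101 to 58515124, plus strand, 26 exons) had 54.0, 55.7, 58.8, 63.6 and 64.5 CPM in NT females. LB females ranged from 39.5 to 61.9 CPM with a median of 54.4 CPM. The groups overlapped, and the lowest value was that of LB female 5022. The log2 fold change was -0.13 (95% confidence interval -0.43 to 0.17, adjusted p = 0.820 from edgeR).

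Plec (chromosome 7, 117230319 to 117289961, minus strand), the cytolinker, had 258, 284, 289, 302 and 319 CPM in NT females. In LB females it ranged from 214 to 387 CPM with a median of 302 CPM, 3 animals being below and 3 above every NT female. LB females (SD 69.4 CPM) were thus more dispersed than NT females (SD 22.5 CPM) around a similar centre. In males the SD was larger in NT (104 CPM) than in LB (69.7 CPM), and spread was not tested. The log2 fold change of Plec in females was 0.04 (95% confidence interval -0.46 to 0.54). Its sign turned with the scaling, being -0.02 with library size alone.

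The 3 laminin chains gave small differences in females as well. Lama5 (chromosome 3, 175553042 to 175601112, minus strand, 79 exons) lay between 5.24 and 6.37 CPM in NT females and between 4.28 and 11.3 CPM in LB females, the highest being LB female 5022. Lamb2 (chromosome 8, 117268374 to 117280514, plus strand, 33 exons) lay between 54.1 and 62.6 CPM in NT females, with 4 of 7 LB females below that range and LB female 5022 above it at 88.7 CPM. For Lamc1 (chromosome 13, 70656727 to 70783515, minus strand, 28 exons) the NT females were close together, from 45.6 to 48.6 CPM, and 5 of 7 LB females lay above and 2 below them. The log2 fold changes were 0.14 for Lama5 (95% confidence interval -0.37 to 0.65), -0.06 for Lamb2 (-0.39 to 0.26) and 0.12 for Lamc1 (-0.12 to 0.35). The adjusted p of Plec and the laminin chains in females lay between 0.790 and 0.967 in edgeR. Without LB female 5022 the log2 fold change of Lama5 was -0.06 and that of Lamb2 -0.21.

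In males 0 of 12107 genes (0%) were called in edgeR, so no partner was either. Before adjustment, 2 partners had a p under 0.05, where 1211 of all 12107 genes tested had one. DESeq2 called 3 genes in males, and 0 partners. Lamc1, the gamma chain of most laminins, ranged from 40.1 to 76.1 CPM (median 52.6) in NT males and from 38.0 to 46.8 CPM (median 44.2) in LB males. Itga6 ranged from 47.5 to 95.4 CPM (median 57.9) in NT males and from 42.7 to 62.7 CPM (median 52.8) in LB males. For both genes the groups overlapped, and NT male 6112, which also had the most Itgb4, had the highest value. The log2 fold change of Lamc1 was -0.34 (95% confidence interval -0.55 to -0.13; unadjusted p = 0.00222, adjusted p = 0.462 from edgeR) and that of Itga6 was -0.31 (-0.58 to -0.05; unadjusted p = 0.0229, adjusted p = 0.476 from edgeR). Without NT male 6112 these values were nearer 0, at -0.24 for Lamc1 and -0.20 for Itga6, and that of Itgb4 in males was -0.64. In that fit 467 of 12058 genes tested had an unadjusted p under 0.05. With all animals, Lama5 had a log2 fold change of -0.39 (-0.84 to 0.06), Lamb2 of -0.09 (-0.38 to 0.20) and Plec of -0.04 (-0.48 to 0.40).

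Over both sexes 0 of 5 partners were called, beside 1 of 12107 genes (0.00826%). The smallest adjusted p of a partner was 0.293 for Itga6 (log2 fold change -0.22, 95% confidence interval -0.42 to -0.02) in edgeR. The interaction of sex and treatment called 0 of 12107 genes (0%) in edgeR and 0 in DESeq2, and 570 had an unadjusted p under 0.05. Its log2 value, the LB effect in males minus that in females, was -0.46 for Lamc1 (95% confidence interval -0.77 to -0.15; unadjusted p = 0.00568, adjusted p = 1.0 from edgeR), with an opposite sign to that of Itgb4. It was -0.53 for Lama5, -0.19 for Itga6, -0.08 for Plec and -0.03 for Lamb2, each with an interval that included 0. The comparisons in females and in males share no animals, but both enter the comparison over both sexes and the interaction.

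**Figure D2:**
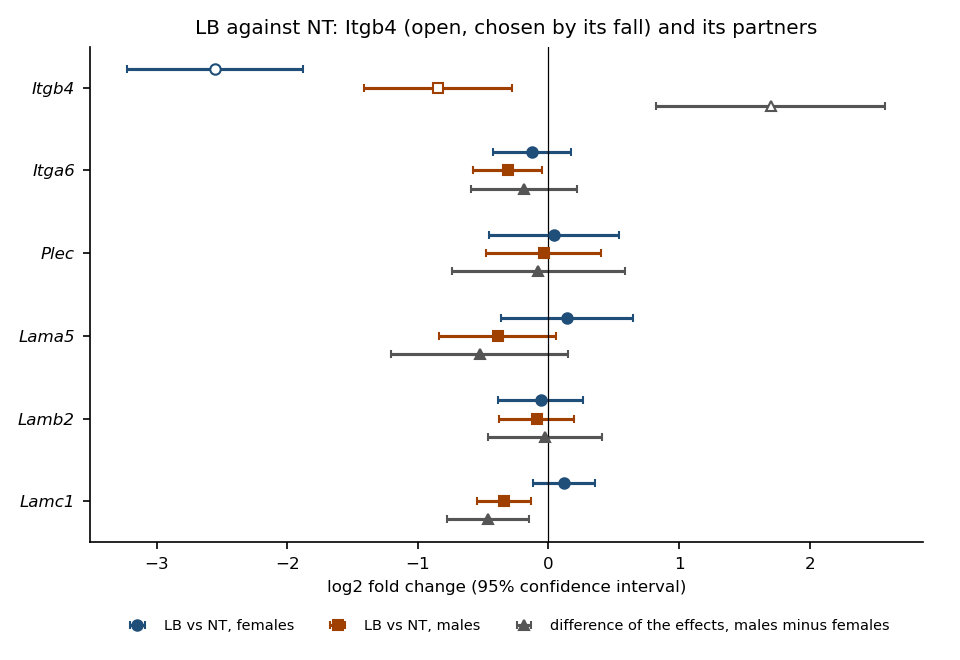
Log2 fold changes with 95% confidence intervals (horizontal axis) of LB against NT in females and in males, and the difference between them, for the 6 members tested. Open symbols are Itgb4, the gene chosen by this contrast. In females the Itgb4 interval, a description without a test, runs from -3.22 to -1.88, and every partner's interval includes 0. In males the intervals of Itga6 and Lamc1 lie below 0, with adjusted p of 0.476 and 0.462 from edgeR.

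Sex differences were examined within each rearing condition. Between NT males and NT females 15.2% of genes were called, and 0 of 5 partners were. At that share a count of 0 of 5 does not set the partners apart from genes in general. These sex calls depended on the model: edgeR called 1840 genes, limma-voom called 2 with a random block for animals whose titles share a beginning (1230 without the block), and edgeR called 3 with a granule cell score as a covariate, and the NT sex calls named below are those of the edgeR model without either term. The smallest adjusted p was 0.186, for Lamc1 (log2 fold change 0.22, positive when higher in males, standard error 0.115, edgeR). Between LB males and LB females 0.248% of genes were called, 30 genes, against 4 with the block and 3 with the meningeal fibroblast score as a covariate. Itgb4, chosen from the same LB females, was higher in 8 of 8 LB males than in any LB female. Of the partners 0 of 5 were called, beside 0.248% of all genes tested. Their log2 fold changes were all below 0 there, from -0.31 for Lama5 to -0.05 for Itga6, with the smallest adjusted p again that of Lamc1 (-0.24, standard error 0.101, adjusted p = 0.219 from edgeR). With the meningeal fibroblast score (described below) as a covariate, the LB value of Itga6 was 0.22 and that of Plec 0.05, above 0.

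The partners were not the only laminin receptors and laminins measured. Of 24 other integrin subunits, 18 had a row and 15 were tested. In LB against NT 0 of 15 were called in females, in males or over both sexes, beside 1, 0 and 1 of all 12107 genes tested. The median log2 fold change was 0.00 in females and 0.02 in males, beside 0.02 and -0.02 over all genes tested. The subunits with the smallest p in females were Itgb2 (log2 fold change 0.45, standard error 0.236) and Itgae (0.40, standard error 0.211), which mark leukocytes, and Itgb7 (-0.30, standard error 0.320). Itgb1, the other partner of alpha 6, had a log2 fold change of -0.34 in males (standard error 0.119, unadjusted p = 0.00848, adjusted p = 0.462 from edgeR). In the NT sex comparison 2 of 15 were called, beside 15.2% of all genes tested: Itgb1 was 119.7 CPM in males and 90.9 CPM in females, and Itgb2 was 6.79 and 3.72 CPM.

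Other laminin chains and basement membrane genes numbered 20, of which 12 were tested. In LB against NT 0 of 12 were called in females, in males or over both sexes, beside 1, 0 and 1 of all 12107 genes tested. The smallest p in females were those of Sparc, a matrix-binding protein (log2 fold change 0.42, standard error 0.150), Lamb3 (0.47, standard error 0.192), whose chain belongs to the laminin of epithelial hemidesmosomes, and Col4a1 (0.30, standard error 0.188), the network collagen of basement membranes. All 3 had higher means in LB females, the direction opposite to that of Itgb4, with adjusted p from 0.576 to 0.716 in edgeR.

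Other laminin receptors and hemidesmosome genes numbered 16, of which 14 were tested, and integrin adaptor and signalling genes 21, of which 19 were tested. Of these 0 were called in LB against NT in females, in males or over both sexes, beside 1, 0 and 1 of all 12107 genes tested. In females the smallest p among the receptors were those of the tetraspanins Cd9 (log2 fold change 0.59, standard error 0.258) and Cd82 (0.70, standard error 0.312) and of the syndecan Sdc2 (-0.51, standard error 0.253), and among the adaptors those of Fermt3 (0.36), Parva (-0.44) and Vim (-0.23). Their adjusted p lay between 0.580 and 0.721 in edgeR. In NT animals, beside 15.2% of all genes tested, 4 of 14 receptors were called between the sexes, with Cd9, Cd82 and Sdc4 higher in males and Sdc1 higher in females, and 1 of 19 adaptors, Parva, higher in females. The tetraspanin Cd9 had 213.7 CPM in NT males and 110.0 CPM in NT females. The summed CPM of 8 oligodendrocyte markers, cells in which Cd9 is known to be expressed, had a median of 20701 in NT males and 10470 in NT females, and its part in these differences was not tested. For the interaction 0 genes of any of the 4 lists were called, beside 0 of all 12107 genes tested.

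To ask which vascular or meningeal genes varied with Itgb4 beyond the group means, each animal's log2(CPM + 0.5) was centred on the mean of its group. Marker scores, the mean of centred log2 values over a list of marker genes, were treated alike. Permutation within groups tested 12 relations, those of Itgb4 with 5 partners and 7 scores, with Benjamini-Hochberg adjustment over the 12. The permutations took no account of the 10 sets of animals whose titles share a beginning, and no blocked version of the correlations was run. No relation of Itgb4 with its alpha subunit was detected: Pearson's r with Itga6 was 0.013 (rho = -0.16, permutation p = 0.958 and 0.473, n = 27). It was 0.049 with Lamb2, 0.075 with Lamc1 and -0.21 with Lama5, with adjusted permutation p from 0.855 to 0.898. Without the animals farthest in the partner, r was -0.16 for Itga6 (3111 and 6112) and -0.20 for Lamc1 (6111 and 6112). Without 6112 and 9122, the animals farthest from their group in Itgb4, it was -0.29 and -0.31.

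Plec varied inversely with Itgb4, with r = -0.56 (permutation p = 0.00962, adjusted 0.0452) and rho = -0.61 (permutation p = 0.00354, adjusted 0.0210), and r was -0.48 without the animals farthest in Plec, 3112 and 6112. The same sign was found within NT males (r = -0.85, exact permutation p = 0.0179, adjusted 0.349 over 36 relations within groups), LB males (-0.45) and LB females (-0.34). NT females were too few for a value of their own. NT males with the least Plec, 3112 and 6112 at 119 and 147 CPM, had the most Itgb4, and those with the most Plec, 4111 and 3111, had the least.

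The score of 18 meningeal fibroblast genes varied with Itgb4 in the same direction, with r = 0.56 (permutation p = 0.00441, adjusted 0.0452) and rho = 0.57 (permutation p = 0.00370, adjusted 0.0210), and r was 0.54 without 8022 and 8023. Within groups r was 0.77 in LB females (exact permutation p = 0.0438, adjusted 0.526), 0.53 in LB males and 0.34 in NT males. A score of 5 arachnoid genes of epithelial type, which share cadherins and keratins with epithelia, gave r = 0.51 (permutation p = 0.0113, adjusted 0.0452) and rho = 0.56 (permutation p = 0.00525, adjusted 0.0210), and r was 0.50 without the same pair. These 3 relations were close to the threshold. In 15 of 27 repeats that each left out 1 animal 0 relations passed by Pearson's r, although r kept its sign for all 3 and ranged from -0.66 to -0.49 for Plec, from 0.52 to 0.69 for the fibroblast score and from 0.46 to 0.65 for the arachnoid score. By rank correlation all 3 passed in 25 of 27 repeats.

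No vessel score passed the threshold with Itgb4. The endothelial score of 17 genes gave r = -0.28 (permutation p = 0.210, adjusted 0.630; rho = -0.35), and r was -0.40 without 122 and 5022. Within NT males its rho was -0.89 (exact permutation p = 0.0123, adjusted 0.148) and r -0.60, and r was -0.33 in LB females and -0.09 in LB males. The arterial endothelial score of 8 genes gave -0.11, the pericyte score -0.13, the smooth muscle score 0.11 (0.38 without 3111 and 5022) and the choroid plexus score 0.16, with adjusted permutation p of 0.855 for each of these. NT male 4113 had by far the most choroid plexus RNA, with a sum of 6640 CPM over 11 markers against a median of 71.2 CPM in NT males. Its Itgb4 of 5.73 CPM was inside the range of the other NT males.

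**Figure D3:**
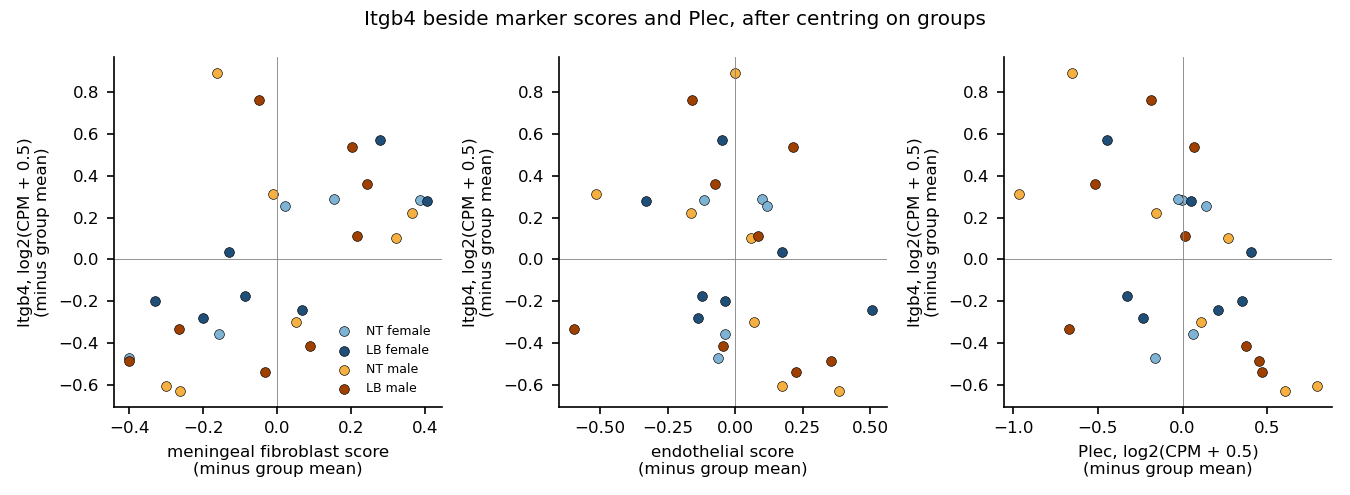
Itgb4 as log2(CPM + 0.5) minus the group mean (vertical axes) against the meningeal fibroblast score, the endothelial score and Plec, each minus the group mean (horizontal axes, log2 units); 1 point per animal, coloured by group. Itgb4 is higher where the fibroblast score is higher (r = 0.56) and lower where Plec is higher (r = -0.56), and r with the endothelial score is -0.28.

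Gene by gene, the same contrast between lists was visible, given here as a description over the same 27 animals. All 18 meningeal fibroblast genes had an r above 0 with Itgb4, from 0.04 to 0.55 with a median of 0.39, where the median over 12106 genes was 0.03. The 17 endothelial genes ranged from -0.40 to 0.05 with a median of -0.21. The other vessel lists lay around 0. Their medians were 0.01 over 8 arterial endothelial genes (-0.36 to 0.33), -0.07 over 10 pericyte genes (-0.23 to 0.05) and 0.05 over 9 smooth muscle genes (-0.20 to 0.33). The highest among the vascular and meningeal lists were the fibrillar collagen Col3a1 (0.55), the keratin Krt8 (0.54), the epithelial cadherin Cdh1 (0.50), the retinoic acid enzyme Aldh1a2 (0.49), Col1a1 (0.44), the proteoglycan Bgn (0.42) and the ligand Bmp6 (0.42). The transporters Slc13a4 (0.41), Slc22a6 (0.40) and Slc6a13 (0.39) followed, so that 8 of the highest 10 were meningeal fibroblast genes and the other 2 arachnoid genes of epithelial type. The 5 arachnoid genes did not go one way: r was 0.25 for Krt19, -0.04 for Jup and -0.43 for Pkp2, a desmosome gene and the lowest of the vascular and meningeal lists (these 3 were named after their values were seen). Without NT male 6112 and LB male 9122, the animals farthest from their group in Itgb4, r was 0.71 for Cdh1, 0.69 for Col3a1, 0.46 for Krt8 and 0.33 for Bgn.

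**Figure D4:**
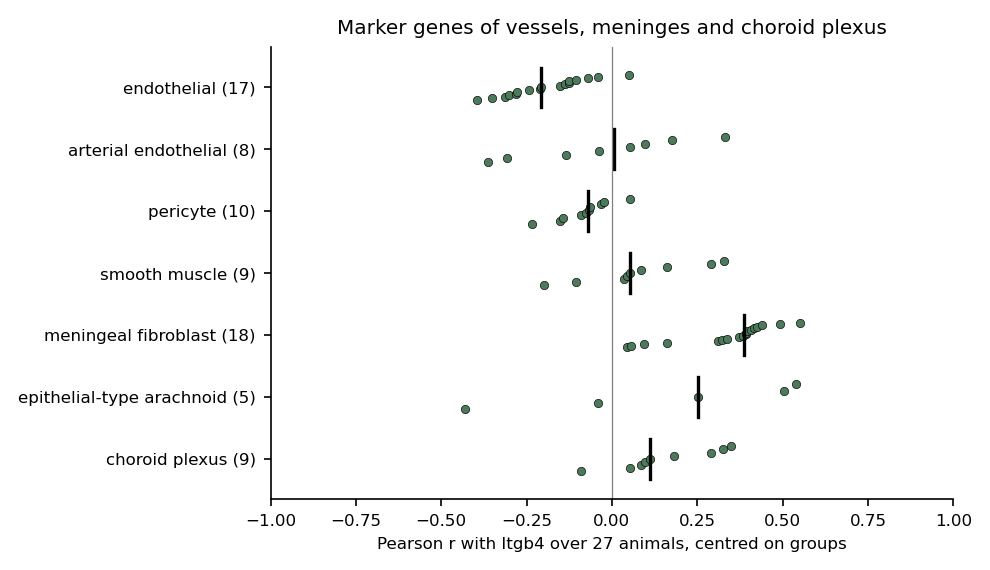
Pearson's r with Itgb4 over 27 animals after centring on groups (horizontal axis) for each tested marker gene (points), by list with the number of genes in brackets; thick lines are medians. The meningeal fibroblast genes lie between 0.04 and 0.55 and the endothelial genes between -0.40 and 0.05.

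Over all genes tested, the highest r with Itgb4 were those of Col14a1 (0.75), a fibril-associated collagen, Fmo1 (0.73), Maob (0.71), Suclg2 (0.71), the glypican Gpc3 (0.70) and Bnc2 (0.65), a zinc finger gene of fibroblasts. Dnajc22 (0.65), the cilia gene Tekt2 (0.65), Dcdc2 (0.64) and Anxa8 (0.63) completed the 10 highest. Col14a1, Gpc3, Bnc2, Dnajc22, Tekt2 and Anxa8 were scarce, with a mean over all animals from 0.546 to 3.16 CPM, whereas the amine oxidase Maob and the mitochondrial enzyme Suclg2 had 70.4 and 51.2 CPM. Without 6112 and 9122, r was 0.68 for Col14a1, 0.54 for Maob and 0.53 for Suclg2. The lowest r were those of Mapk11 (-0.67), Miat (-0.65), Gtpbp2 (-0.65), Pou2f2 (-0.64) and Lcn12 (-0.63). Plec was rank 12080 of 12106, near this end, and Itga6 was rank 6353, in the middle. Col14a1 had 1.34 CPM in NT females and 0.571 CPM in LB females, and 1.67 and 1.02 CPM in NT and LB males. Its log2 fold change was -1.20 in females (standard error 0.403) and -0.73 in males (standard error 0.350), with adjusted p of 0.576 and 0.492 from edgeR.

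Group differences of the meningeal genes went beside those of Itgb4 in females. The summed CPM of 20 meningeal fibroblast markers had a median of 406 in NT females (302 to 476) against 316 in LB females (214 to 421). In males the medians were 630 in NT (439 to 1219) and 793 in LB (472 to 845). The highest NT male was 4113, which also had the most choroid plexus RNA. None of the markers had 0 counts in every animal. In females 0 of 18 tested fibroblast genes were called between LB and NT, beside 1 of all 12107 genes tested. Of the 18, 11 had an unadjusted p under 0.05, all lower in LB, where 7.94% of all genes tested had one. The median log2 fold change of the 18 was -0.54 in females and 0.10 in males, beside 0.02 and -0.02 over all genes tested. Fmod, a small leucine-rich proteoglycan, had 7.99 CPM in NT females and 3.15 CPM in LB females (-1.33 on the log2 scale, edgeR adjusted p = 0.558), and Aldh1a2 had 15.9 and 9.11 CPM (-0.80, edgeR adjusted p = 0.576).

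Cdh1, whose protein joins epithelial and arachnoid barrier cells, averaged 4.92 CPM in NT females (SD 2.22, n = 5) against 0.948 CPM in LB females (SD 1.19, n = 7). Its log2 fold change of -2.34 (standard error 0.501, adjusted p = 0.219 from edgeR) was close to that of Itgb4 in size but did not pass the threshold. The arachnoid list did not go one way in females. Krt19 (-1.88, scarce at 0.548 CPM in NT and 0.141 CPM in LB) and Krt8 (-0.57) were lower in LB, and Pkp2 (0.12) and Jup (0.04) were not. The male means of Cdh1 were close together, 3.47 CPM in NT (SD 1.20, n = 7) against 3.20 CPM in LB (SD 1.71, n = 8). Krt8 had 1.94 CPM in NT females (SD 0.901) and 1.31 CPM in LB females (SD 0.802). It had 6.46 CPM in NT males, which were widely spread (SD 6.34), and 2.56 CPM in LB males (SD 1.04). In edgeR Krt8 was called only for the NT sex difference, at 1.73 on the log2 scale (adjusted p = 0.0270). Jup, a junction protein, was called there in the other direction (-0.47, edgeR adjusted p = 0.0426).

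Between LB males and LB females 8 of 18 fibroblast genes were called, all higher in males, beside 0.248% of all genes. They were Fmod, Igf2, Col1a1, Igfbp2, Col3a1, Crabp2, Aldh1a2 and Foxd1, with log2 fold changes from 0.94 for Aldh1a2 to 2.02 for Fmod and adjusted p from 0.00170 to 0.0436 in edgeR. In NT animals 3 of 18 were called between the sexes, beside 15.2% of all genes tested, the growth factor Igf2, its binding protein Igfbp2 and the proteoglycan Dcn. With the fibroblast score as a covariate, the log2 fold change of Itgb4 between LB and NT was -1.85 in females (standard error 0.374) and -0.92 in males (standard error 0.247), and between LB males and LB females it was 0.86 (standard error 0.433) in place of 1.85. With the endothelial score as a covariate the treatment values were -2.44 and -0.92. Fibroblast genes of the score themselves differed between these groups, so the values with covariates are a description. The part of meningeal tissue in the punches in the Itgb4 difference was not tested.

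For the vessel lists, 0 genes were called between LB and NT in females, in males or over both sexes, and 0 for the interaction. Of all 12107 genes tested, 1, 0, 1 and 0 were called there. The median log2 fold change in females was 0.28 over 17 endothelial genes and 0.42 over 9 smooth muscle genes, above 0 where that of Itgb4 was below it, and in males it was -0.21 and -0.24. Between NT males and NT females 4 of 9 smooth muscle genes were called higher in males, beside 15.2% of all genes tested, namely Tagln, Des, Lmod1 and Acta2, with log2 fold changes from 0.86 to 1.42. The pericyte genes Higd1b (1.13) and Cspg4 (0.64) and the endothelial gene Tm4sf1 (0.55) were also called higher in NT males, and Hey1 (-0.62) higher in NT females. Of 9 choroid plexus genes 5 were called higher in NT males, which include animal 4113, and the 4 with the smallest p were Folr1, F5, Sostdc1 and Ttr.

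Relations of the partners with each other and with cell type markers were examined after the values had been seen: 10 pairs of partners and 30 relations of a partner with 1 of 6 marker scores, adjusted together over the 40. By Pearson's r 8 passed the threshold, and by rank correlation 3, each of which had passed by Pearson's r. Plec varied directly with the endothelial score, with r = 0.72 (permutation p = 0.000150, adjusted 0.00600) and rho = 0.76 (permutation p = 0.000100, adjusted 0.00200), and r was also 0.72 without 122 and 5022. It varied inversely with the astrocyte score, with r = -0.69 (permutation p = 0.00145, adjusted 0.0193) and rho = -0.71 (permutation p = 0.000610, adjusted 0.00813), and r was -0.65 without 3113 and 6112. The laminin chains Lama5 and Lamb2 varied together, with r = 0.67 (permutation p = 0.000450, adjusted 0.00900) and rho = 0.78 (permutation p = 0.0000600, adjusted 0.00200). Without 122 and 5022 r was 0.63. These 3 relations passed in 27 of 27 repeats that left out 1 animal, by either measure.

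The other 5 passed by Pearson's r alone. Itga6 varied with Lamc1, with r = 0.68 (permutation p = 0.00318, adjusted 0.0254) and rho = 0.63 (permutation p = 0.00521, adjusted 0.0521), and r was 0.53 without the NT males 6111 and 6112 and 0.85 without LB female 5022. Plec varied with Lama5 (r = 0.61, rho = 0.56, adjusted permutation p = 0.0337 and 0.0601). The endothelial score gave r = 0.67 with Lamb2 (rho = 0.51, adjusted permutation p = 0.0224 and 0.0824) and 0.58 with Lama5 (rho = 0.41, adjusted permutation p = 0.0396 and 0.244). Lamb2 also varied with the smooth muscle score (r = 0.62, rho = 0.42, adjusted permutation p = 0.0396 and 0.243). LB female 5022 had the highest value of its group for both laminin chains and for the summed markers of endothelium and smooth muscle, and without it and 122 r of Lamb2 with the endothelial score was 0.41.

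**Figure D5:**
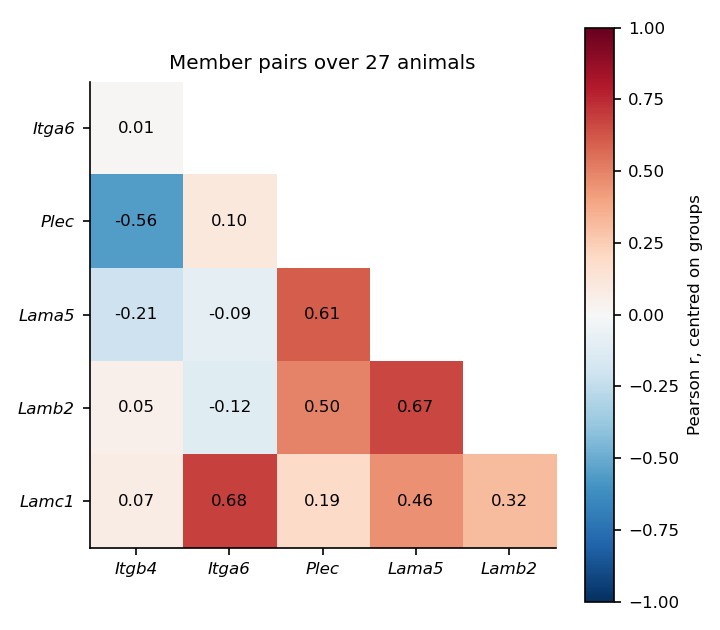
Pearson's r (colour and number) for each pair of the 6 members tested, over 27 animals after centring on groups. Plec, Lama5 and Lamb2 form a block of positive values, Itga6 goes with Lamc1 (0.68), and the Itgb4 column holds values between -0.56 and 0.07.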

How the data were processed

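The authors prepared libraries with a kit for polyadenylated RNA, mapped reads with STAR 2.5.2b (rat build rn6) and counted them on genes with featureCounts of Subread 1.5.1, per the labels, and deposited the raw counts beside each gene's coordinates and length. Samples of low RNA integrity had been excluded by the authors. The treatment of strand and of multimapping reads is not given in the sources used here.

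Total counts ranged from 11836684 to 24169170 per animal (median 16034036). No count column was a copy: 0 of 80 same-group pairs were identical. Groups came from the sample labels.

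Counts were analysed with edgeR 4.0.16 in R 4.3.3: filterByExpr (minimum count 10, minimum total count 15) left 12107 genes, TMM normalization was used, and the 27 animals entered 1 robust quasi-likelihood model of 4 group means (prior count 0.125). Benjamini-Hochberg adjustment ran over every tested gene, and 0.05 was the threshold. Standard errors were the size of the log2 fold change divided by the square root of F. TPM were computed from counts and exon lengths. Correlations used 100000 permutations within groups (20000 where 1 animal was left out) or exact permutation within a group, all two-sided. Models and permutations were tested on simulated data. Detection was taken from 3 counts, which covers counting error only. Nothing in the labels states separate litters, so p values measure the spread between these animals.

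Alternatives were DESeq2 1.42.0, limma-voom (limma 3.58.1), library size alone, upper-quartile normalization, no filter but 1 count (15089 genes), 10 counts in every animal (10786 genes), only the groups compared, a prior count of 2, marker scores of meningeal fibroblasts, endothelium or granule cells as covariates, a random block for the 10 sets of animals whose titles share a beginning (consensus correlation 0.17), and each animal left out. For correlations they were log2(CPM + 2), library size alone and no centring. Rank correlation as an alternative, and the relations among partners and scores, were added after seeing the data.

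The members and gene lists were chosen with earlier results of these data known. Named genes are the members in every comparison, list genes called in a treatment effect or interaction, at most 4 per list called in a sex difference (Itgb1 in males and the last 4 of 8 fibroblast genes called in LB fall outside this rule and were named after their values were seen), the 3 with the smallest p per pathway list in females, and the genes with the highest or lowest r. The NT sex comparison of the basement membrane list is not reported here.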

Additional observations from a re-analysis of the deposited data

Results flagged for a closer look

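LB female 5022 lay far from the other 6 LB females for both Lama5, with 11.3 CPM, and Lamb2, with 88.7 CPM, the gap to its nearest neighbour being most of the range of the group. For Itgb4 it had 0.571 CPM, among the other LB females, and for Itga6 it had the lowest value of the group, 39.5 CPM. In all 24 groups (6 genes in 4 groups) were examined and 2 held such an animal, where chance flags about 1 in 20. The same animal had the highest summed markers of the LB females for endothelium (974 CPM), smooth muscle (266 CPM) and oligodendrocytes (40962 CPM), and the part of these in its laminin values was not tested.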

How the results depend on the processing

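No partner was called in any of the 1156 partner values with an adjusted p. The other 4 of 1160, over both sexes in DESeq2 (Itga6, Lama5, Lamb2 and Lamc1), had none. In the main model 1, 0, 1 and 0 of 12107 genes were called in females, in males, over both sexes and for the interaction. With so few calls there, the absence of partners among them says little about the partners. The fits also share animals, so they are not separate evidence. The 116 values of Itgb4 between LB and NT were all below 0, from -2.74 to -1.85 in females, where the value nearest 0 came with the meningeal fibroblast score as a covariate. With that covariate the Itgb4 interaction was 0.93. The count of relations with Itgb4 past the threshold moved from 3 to 0 with log2(CPM + 2) and to 0 with library size alone, was 2 without centring, and ranged from 0 to 3 over the repeats that left out 1 animal. It was 0 without NT females 1011, 1013, 2011 or 2012, NT males 3112, 4111, 4113 or 6111, LB females 8021, 8023 or 8024, or LB males 123, 7121, 7122 or 9123, and 1 without NT male 3113 or LB males 121 or 9122. For relations among partners and scores the count of 8 fell to 3 without LB male 122 and to 5 without LB males 123 or 7121, LB females 5021 or 5022, or NT male 6112.

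Signs turned for values that were not called. In LB against NT females, Plec was -0.021 with library size alone, -0.20 with the meningeal and -0.22 with the endothelial covariate (from -0.032 to 0.11 leaving out 1 animal), Lama5 -0.10 with the endothelial covariate (from -0.061 to 0.22), and Lamb2 0.044 with the meningeal one. In males Plec was 0.019 with limma-voom, 0.034 with the title block and 0.18 with the endothelial covariate (from -0.16 to 0.089), and Lamb2 0.0012 with the last. Over both sexes Plec, 0.0012 in the main model, was -0.016 with DESeq2, -0.045 with library size, -0.0088 with the upper quartile, -0.013 without the filter, -0.014 with 10 counts in every animal, and -0.11, -0.022 and -0.015 with the meningeal, endothelial and granule cell covariates (from -0.060 to 0.065). For the interaction Plec was 0.0092 with limma-voom, 0.018 with the block, 0.19 and 0.40 with the meningeal and endothelial covariates (from -0.20 to 0.049), Itga6 0.021 with the meningeal one, and Lamb2 0.012 with library size and 0.24 with the endothelial one (from -0.10 to 0.12). Between NT sexes Plec was 0.12 with the granule cell covariate, Itgb4 (0.14 in the main model) was -0.068 with the meningeal and -0.27 with the granule cell covariate and -0.066 without NT male 6112, and between LB sexes Plec was 0.048 and Itga6 0.22 with the meningeal one.

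Over all genes, the meningeal covariate left 0 calls in LB against NT females, and leaving out 1 animal gave from 1 to 7. DESeq2 called 6 genes in LB against NT females, 3 in males, 103 over both sexes (all higher in LB, Itgb4 not among them for want of an adjusted p), 2477 between NT sexes and 408 between LB sexes, beside 1, 0, 1, 1840 and 30 in edgeR. Over both sexes these 2 counts were not made over the same genes, as DESeq2 left some without an adjusted p. The title block gave 2 calls between NT sexes and 4 between LB sexes, the granule cell covariate gave 3 between NT sexes, and leaving out 1 animal gave from 590 to 2735 between NT sexes. Between LB sexes the meningeal covariate gave 3 calls and leaving out LB female 5022 gave 1059. Over both sexes leaving out LB female 8021 gave 330. No paired analysis was possible because the labels give no replicate numbers that groups share. Depth limits Itgb4, which had as few as 10 counts in an animal.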
